A study of Mus musculus with 4 samples.

Results

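The interferon regulatory factors (IRFs) described here are 8 genes of 1 transcription factor family, Irf1, Irf2, Irf3, Irf4, Irf5, Irf7, Irf8 and Irf9, chosen by name from the 35275 gene identifiers of the deposited tables. Their RNA was measured by bulk RNA sequencing of natural killer (NK) cells from mouse spleen, enriched with a kit and then sorted as CD3-, NK1.1+ cells. The 4 groups were Irf4-/- injected, Irf4-/- control, WT injected and WT control, with 1 library each. Injected mice, titled treated in the labels, had received cells of the melanoma line B16-F10 into a vein and were sampled on day 20, and control mice had received none. WT mice were C57BL/6. The labels give neither the deleted part of Irf4 in Irf4-/- mice, nor the animals' ages, nor how many animals stood behind a library.

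IRFs bind DNA through a domain with a repeated tryptophan motif that reads GAAA sequences. IRF3, IRF5 and IRF7 wait in the cytoplasm and are activated by kinases downstream of nucleic acid and Toll-like receptors, whereas IRF9 joins STAT proteins in the complex ISGF3, which carries the type I interferon signal. IRF1 activates and IRF2 often counters interferon responses, and both factors are needed for normal NK cell development in mice. IRF4 and IRF8 are lymphoid and myeloid factors that bind with partners such as PU.1, BATF and IKAROS. IRF4 controls the activation and terminal differentiation of B and T cells, and IRF8 is used by dendritic cells and by NK cells responding to virus.

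The libraries held between 15878159 and 21104881 counts. The design implies 2 comparisons, of genotype and of injection, each with 2 pairs of libraries. With 1 library a group, a difference within a pair compares those libraries and has no replicate check, and its 95% interval covers counting error only. Reads amplified by PCR and not tagged by molecule are not independent draws, so these intervals may be too narrow. Tests came from 1 additive model of genotype and injection, fitted to the 4 libraries together (edgeR's quasi-likelihood test, Benjamini-Hochberg adjustment over 11998 genes), in which all 8 genes were tested. The model has 1 residual degree of freedom, and its p-values rest on a spread taken from the departure of the 4 libraries from an additive pattern, which may be technical. "Rose" and "fell" are used of that test alone. Over the tested genes the root mean square log2 difference between libraries was 0.460 to 0.506 with WT injected in the pair and 0.342 to 0.446 without it, and WT injected was the lowest library for Irf1, Irf2, Irf3, Irf4, Irf8 and Irf9. Values without it are therefore given where they bear on a result.

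NK cells held the family at very unequal levels. Irf8 and Irf1 led and Irf4 came last in every library, on the scale of the deposited FPKM, which divides counts by a gene length and the library total. That length fell short of the annotated exonic bases by unequal factors. It was 2484 against 7396 bp for Irf2, 3869 against 5386 bp for Irf9 and 4715 against 4903 bp for Irf4. The order of genes at near levels, such as Irf2 and Irf9, therefore depends on the length used. Irf8 stood at 183 FPKM in Irf4-/- injected, 205 in Irf4-/- control, 142 in WT injected and 154 in WT control. Irf1 stood at 147 FPKM in Irf4-/- injected, 151 in Irf4-/- control, 106 in WT injected and 137 in WT control. Together they gave the larger part of the summed FPKM of the 8 genes in each library, as Irf8 alone gave 35.4%, 37.1%, 34.0% and 31.9% in the same order of libraries and Irf1 28.3%, 27.4%, 25.4% and 28.3%. The ranges of Irf8 and Irf1 over the libraries overlapped, although Irf8 was the higher of the pair within each library.

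By the deposited FPKM, Irf3, Irf2 and Irf7 formed a middle layer. Irf3 lay between 51.7 and 56.2 FPKM, Irf2 between 43.1 and 52.5, and Irf7 between 39.6 and 44.3, so that neighbours in this order overlapped. Irf9 lay below them, from 22.2 FPKM in WT injected to 33.9 in Irf4-/- control, and Irf5, a factor of myeloid and B cells, lay at 9.73 to 11.4 FPKM. Neither range touched that of a neighbour in the order. Irf4 had 2.69 FPKM in Irf4-/- injected, 2.51 in Irf4-/- control, 0.649 in WT injected and 0.935 in WT control, which was between 0.156% and 0.518% of the summed FPKM. Of the genes with any count, 98.5% had a lower mean FPKM than Irf8 and 52.6% a lower one than Irf4.

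**Figure D1:**
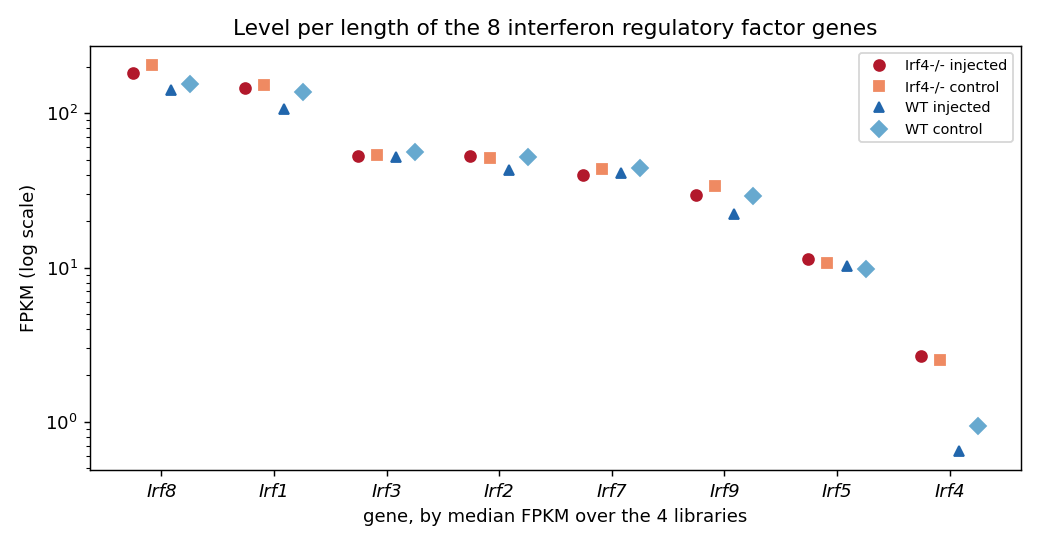
Deposited FPKM (vertical, log scale) of each of the 8 genes in each library, ordered by the median over libraries, 1 point a library and no replicates. Irf8 and Irf1 sit at the top, and Irf4 sits at the bottom with its Irf4-/- points (2.69 and 2.51 FPKM) above its WT points (0.649 and 0.935).

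The promoters of 4 members are shown. Irf4 carries the largest genotype change, and Irf8 and Irf1 have the highest levels. Irf2 was lowest in WT injected, as were Irf3 and Irf9, whose windows held no match and are not shown. A link between the matches and the levels was not tested. Each window is the RefSeq sequence in GRCm38.p6 from 250 bases before to 50 after an annotated start, 5' to 3' on the gene's strand, which is the plus strand for all 4. Capitals mark matches to the letters searched, which were sought on both strands.
Irf4, chr13:30748983-30749282: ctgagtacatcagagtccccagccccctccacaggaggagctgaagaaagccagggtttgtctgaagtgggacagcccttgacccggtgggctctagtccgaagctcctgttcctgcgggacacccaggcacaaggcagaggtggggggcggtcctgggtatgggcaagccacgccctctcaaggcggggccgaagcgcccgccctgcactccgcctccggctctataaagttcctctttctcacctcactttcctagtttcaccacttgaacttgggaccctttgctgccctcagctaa
Irf8, chr8:120736108-120736407: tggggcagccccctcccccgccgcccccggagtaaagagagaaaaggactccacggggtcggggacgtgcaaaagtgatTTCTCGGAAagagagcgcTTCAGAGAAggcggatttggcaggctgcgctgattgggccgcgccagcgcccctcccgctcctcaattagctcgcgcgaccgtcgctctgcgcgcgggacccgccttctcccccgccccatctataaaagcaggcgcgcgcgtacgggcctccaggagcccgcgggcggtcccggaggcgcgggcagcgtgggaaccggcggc
Irf1, chr11:53769764-53770063: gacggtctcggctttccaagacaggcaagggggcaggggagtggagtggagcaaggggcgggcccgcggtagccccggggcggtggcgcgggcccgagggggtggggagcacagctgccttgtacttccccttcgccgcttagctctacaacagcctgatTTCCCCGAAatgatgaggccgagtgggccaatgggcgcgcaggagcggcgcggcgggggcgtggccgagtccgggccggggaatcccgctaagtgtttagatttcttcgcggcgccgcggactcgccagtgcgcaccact
Irf2, chr8:46739495-46739794: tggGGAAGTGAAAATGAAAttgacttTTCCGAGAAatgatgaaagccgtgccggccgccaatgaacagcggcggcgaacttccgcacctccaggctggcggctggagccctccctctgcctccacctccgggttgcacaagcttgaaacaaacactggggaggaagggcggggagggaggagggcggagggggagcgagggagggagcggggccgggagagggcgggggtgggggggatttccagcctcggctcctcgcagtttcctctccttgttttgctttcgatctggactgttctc

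The searched patterns were GAAA, any 2 bases and GAAA (the interferon-stimulated response element, ISRE, read by IRFs), GGAA, any 2 bases and GAAA (the Ets-IRF composite element), TGANTCA (the AP-1 site), GAAA set directly or 4 bases before TGANTCA (both composites of an IRF and an AP-1 site) and TTCNNNGAA (the gamma-activated sequence, GAS, read by STAT dimers). The Irf2 window held an ISRE match, GAAAATGAAA, and overlapping it an Ets-IRF match, GGAAGTGAAA, with a GAS match, TTCCGAGAA, further on. ISRE letters stood in 3.44% of all 32851 RefSeq windows of this length and Ets-IRF letters in 2.72%. The Irf1 window shown held 1 GAS match, TTCCCCGAA, and the Irf8 window shown held a pair, TTCTCGGAA and TTCAGAGAA. Irf1 and Irf8 each have a further window, which held no match and is not shown. GAS letters stood in 8.30% of all windows. The Irf4 window and the windows of Irf3, Irf5, Irf7 and Irf9 held none of these letters, which says nothing of what binds there or elsewhere. AP-1 letters stood in 7.81% of all windows and the composites in 0.125% and 0.149%, and 0 of the 11 windows of the 8 genes held any of them.

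Irf4, the gene named by the genotype label, was higher in both libraries labelled Irf4-/-. It had 236 counts in Irf4-/- injected, 188 in Irf4-/- control, 57 in WT injected and 93 in WT control. As CPM, counts scaled to a common library size with edgeR's TMM method, these are 12.7, 11.7, 3.07 and 4.42. Both Irf4-/- libraries were thus above both WT libraries with no overlap. The ratio was 4.02-fold in injected mice, a log2 ratio of 2.01 (95% counting interval 1.62 to 2.49), and 2.61-fold in control mice, a log2 ratio of 1.39 (1.04 to 1.78). In the additive model Irf4 rose with the Irf4-/- label by a log2 change of 1.72, with an SE of 0.241 and an adjusted p of 0.00490, and 47 of the 11998 genes tested had a larger upward change. The counts are summed over the whole gene (ENSMUSG00000021356, chromosome 13, 30749226 to 30766976, plus strand, GRCm38), and the deleted part is not stated, so that they check neither the label nor the protein. Directions of genotype below are those of the libraries labelled Irf4-/-.

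Irf4 was the 1 gene of the 8 that rose with the Irf4-/- label, and 0 fell, against 1.22% and 0.258% of all genes tested. The median log2 change of the 8 was 0.229, against -0.001 for all genes tested. With injection left out as a term, the fit on all 4 libraries gave Irf4 a change of 1.71 that did not pass (adjusted p = 0.0995 by edgeR). Fits without 1 library also leave that term out, because 3 libraries cannot carry both. Without WT injected, Irf4 was at 1.48 (adjusted p = 0.0094), but there WT control is the whole WT arm, assumed to vary like the Irf4-/- libraries, which alone give the spread. The same fit missed the threshold without Irf4-/- injected (1.66, adjusted p = 0.9999) and without Irf4-/- control (1.76, adjusted p = 0.516), and without WT control, where WT injected is the whole WT arm, it gave 1.99 (adjusted p = 7.82e-06).

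The labelled cell type was checked against its markers. The 13 NK cell markers, which include Ncr1, Klrb1c and Eomes, summed to 17705 CPM in Irf4-/- injected, 17295 in Irf4-/- control, 15918 in WT injected and 16166 in WT control, and 0 of them passed either effect. Markers of other cells that express Irf4, Irf5 or Irf8 were also counted, and in bulk RNA fewer cells of a type and less RNA per cell cannot be told apart. Of 12 B cell markers, 0 passed the genotype effect, and their sum was 273 CPM in Irf4-/- injected, 267 in Irf4-/- control, 224 in WT injected and 270 in WT control, most of it Ighm. The median change of the list was 0.365 for genotype and -1.07 for injection, against -0.001 and 0.003 for all genes tested. Cd79a, which encodes a part of the B cell receptor, stood at 5.37 CPM in Irf4-/- injected, 9.24 in Irf4-/- control, 3.28 in WT injected and 8.61 in WT control. Cr2, which encodes a complement receptor of B cells, stood at 4.46, 4.12, 2.21 and 3.85 CPM in the same order. Both were lowest in WT injected, as was most of the list, and both were singled out after their values were seen. The list did not share a single order of libraries. Fcer2a, at 0.483, 4.06, 1.02 and 3.28 CPM in the same order, was lowest in Irf4-/- injected. Ighm, at 218, 188, 192 and 195.5 CPM, was lowest in Irf4-/- control.

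The 6 plasma cell markers, whose cells carry much Irf4, summed to 85.1 CPM in Irf4-/- injected, 92.0 in Irf4-/- control, 71.8 in WT injected and 95.6 in WT control, most of it Xbp1, and 0 of the 2 tested passed either effect. Jchain, which encodes the joining chain of secreted antibodies, had 2 counts in Irf4-/- injected, 57 in Irf4-/- control, 50 in WT injected and 56 in WT control. Mzb1, a plasma cell chaperone gene, had 14, 23, 4 and 14 counts in the same order. Sdc1 lay between 0.161 and 0.431 CPM and Derl3 between 0.428 and 1.06, and Tnfrsf17 was at 0 counts in every library.

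Of 11 conventional dendritic cell markers, 7 were tested and 1 rose with the Irf4-/- label, against 1.22% of all genes tested. It was Cd74, the invariant chain of MHC class II (0.55, adjusted p = 0.0283 by edgeR). The adjusted p of Cd74 was 0.0594 by DESeq2, 0.329 with injection left out as a term and 0.123 with WT injected left out too. The median genotype change of the list was 0.366, and its summed level was 1425 CPM in Irf4-/- injected, 1286 in Irf4-/- control, 804 in WT injected and 1045 in WT control. Itgax, which NK cells also express, made up most of it. Of the markers of the cross-presenting subset, Xcr1 had 23 counts in Irf4-/- injected, 24 in Irf4-/- control, 5 in WT injected and 9 in WT control, with a genotype change of 1.964 (adjusted p = 0.142) that did not pass, and Clec9a had 4, 10, 4 and 5 counts in the same order. The 8 plasmacytoid dendritic cell markers summed to 167 CPM in Irf4-/- injected, 163 in Irf4-/- control, 198 in WT injected and 173 in WT control, and 0 passed either effect. Most of this was Runx2, between 95.6 and 118 CPM, and Tcf4, between 49.2 and 69.9, while Siglech lay between 0.333 and 0.874 CPM. The 15 monocyte and macrophage markers summed to 79.9 CPM in Irf4-/- injected, 63.7 in Irf4-/- control, 97.5 in WT injected and 40.7 in WT control, with 0 passing the genotype effect. The 11 T cell markers summed to between 128 and 152 CPM, and 0 passed either effect. The part of these cells in the levels of Irf4, Irf5 and Irf8 was not tested.

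Irf8 and Irf1, the abundant members, leaned the same way by far smaller amounts. Irf8 (chromosome 8, 120736358 to 120756694, plus strand) had 637 CPM in Irf4-/- injected, 703 in Irf4-/- control, 493 in WT injected and 535 in WT control, so that both Irf4-/- libraries were above both WT libraries. Its log2 ratio was 0.37 (0.33 to 0.41) in injected mice and 0.39 (0.36 to 0.43) in control mice, nearly equal in pairs that share no library. In the additive model its genotype change was 0.39 (SE 0.112, 95% interval 0.14 to 0.64), with an adjusted p of 0.180, which missed the threshold. It passed with no filter on low counts (adjusted p = 0.0340 by edgeR). It also missed by DESeq2 (adjusted p = 0.106), by limma-voom (adjusted p = 0.153) and with injection left out as a term (adjusted p = 0.6555 by edgeR). The genotype-only fit gave 0.34 without WT injected and 0.44 without WT control. The same fit gave 0.46 without Irf4-/- injected and 0.31 without Irf4-/- control.

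Irf1 (chromosome 11, 53770014 to 53778374, plus strand) stood at 313 CPM in Irf4-/- injected, 321 in Irf4-/- control, 227 in WT injected and 293 in WT control. The gap between genotypes lay mainly in the injected pair, with a log2 ratio of 0.47 (0.41 to 0.52), against 0.13 (0.08 to 0.18) in control mice. Its additive genotype change was 0.30 (SE 0.114, 95% interval 0.05 to 0.56, adjusted p = 0.355) and did not pass. Irf9 (chromosome 14, 55603571 to 55610030, plus strand), the DNA-binding subunit of ISGF3, had 114 CPM in Irf4-/- injected, 130 in Irf4-/- control, 86.0 in WT injected and 113 in WT control. Its genotype change of 0.31 (SE 0.0977, 95% interval 0.09 to 0.53, adjusted p = 0.234) did not pass either. Irf1 and Irf9 were both lowest in WT injected, and the genotype-only fit without that library gave 0.13 for Irf1 and 0.12 for Irf9. Without WT control, where WT injected is the whole WT arm, that fit gave 0.48 for Irf1 and 0.51 for Irf9.

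Irf2, Irf3, Irf5 and Irf7 each kept to a narrow range over the 4 libraries. Irf2 (chromosome 8, 46739732 to 46847458, plus strand) stood at 131 CPM in Irf4-/- injected, 127 in Irf4-/- control, 108 in WT injected and 129 in WT control, low in WT injected only. Irf3 lay on chromosome 7 (44997648 to 45002848, plus strand), as did Irf7 (141262706 to 141266481, minus strand), and Irf5 on chromosome 6 (29526625 to 29541871, plus strand). Irf3 was between 105 and 115 CPM, Irf5 between 21.9 and 25.7, and Irf7 between 88.6 and 99.5, each with its highest library at most 1.17-fold its lowest. The additive genotype changes were 0.13 for Irf2 (95% interval -0.10 to 0.36), -0.02 for Irf3 (-0.23 to 0.19), 0.15 for Irf5 (-0.15 to 0.46) and -0.05 for Irf7 (-0.25 to 0.16), and 0 of these genes passed. All 4 intervals include 0. The genotype-only fit gave Irf2 a change of 0.0088 without WT injected and 0.26 without WT control.

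Counts of 5 members may hold reads of a neighbour, because their exons overlap those of another gene and whether counting used strand is not given in the sources used here. The overlap was widest for Irf5, with 411 bp or 14.1% of its exonic bases shared with Tnpo3 on the opposite strand. Tnpo3, an importin gene, had 1825 counts in Irf4-/- injected against 478 for Irf5. The other overlaps were shorter, at 135 bp between Irf1 and Gm17334, 88 bp between Irf3 and Bcl2l12, 45 bp between Irf7 and Phrf1, and 123 bp between Irf9 and Rnf31, the last on the same strand.

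The pairs of libraries were also compared one by one. A gene counted as apart when its ratio was at least 1.5-fold, its counting interval left out 1 and its mean reached 1 CPM. By this rule 1 of 8 members, Irf4, was higher in Irf4-/- injected than in WT injected, where 5.96% of all measured genes were, and 0 were lower, against 4.92%. In the control pair it was again Irf4 alone, against 3.57% of all genes higher and 1.8% lower. At any fold, the counting interval lay above 0 for 5 of 8 members in the injected pair, against 25.6% of genes, and for 4 of 8 in the control pair, against 14.6%. The 4 shared by both pairs were Irf1, Irf4, Irf8 and Irf9, and Irf2 was the addition in the injected pair. It lay below 0 for 0 members in either genotype pair, where it did for 24.8% of genes in injected and 19.9% in control mice. A counting interval narrows when counts grow, and these shares of all genes were not matched on level. Irf1 counted in the control pair at a log2 ratio of 0.13, on 5136 counts in Irf4-/- control and 6159 in WT control.

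**Figure D2:**
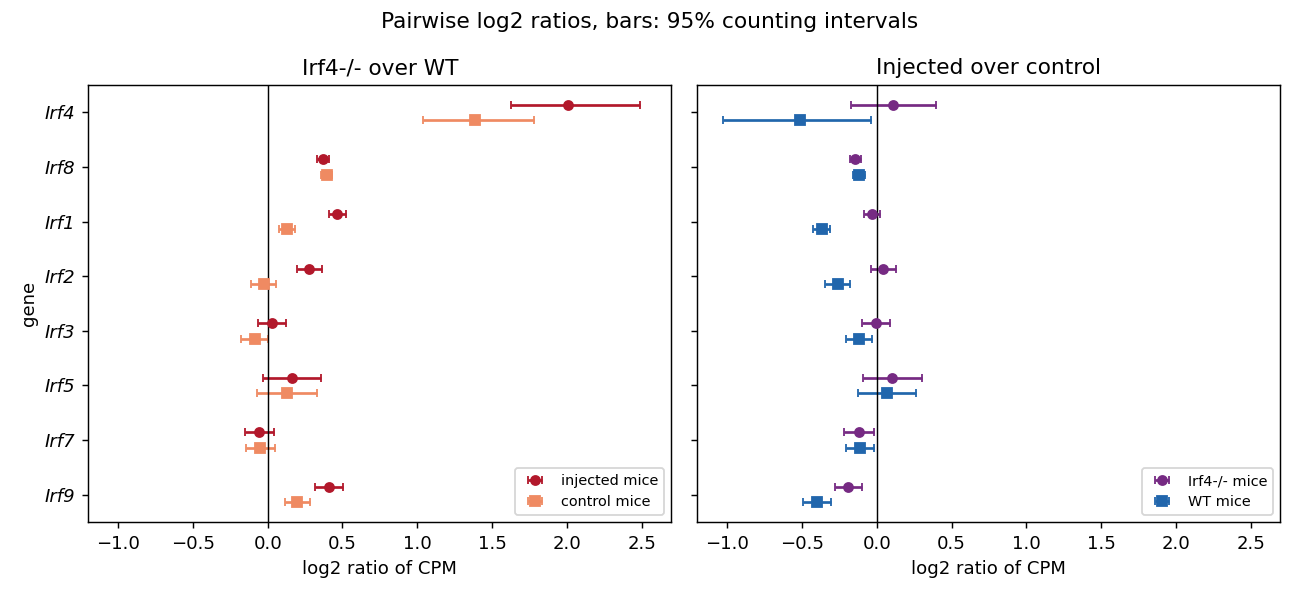
Log2 ratio of CPM (horizontal) for each of the 8 genes (vertical) in the 4 pairs of libraries, Irf4-/- over WT in the left panel and injected over control in the right, with bars for 95% counting intervals and no replicates. Irf4 stands apart in the genotype panel at 2.01 and 1.39, and in the injection panel 7 of 8 WT points lie below 0 with their intervals.

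IRF levels were lower in the WT injected than in the WT control library for most members, in a comparison of single libraries that was not tested. The counting interval of the log2 ratio, WT injected over WT control, lay below 0 for 7 of 8 members, against 29.7% of all genes, and above 0 for 0 members, against 27.2%. It included 0 for Irf5. The ratio was -0.51 (-1.03 to -0.04) for Irf4, -0.40 (-0.49 to -0.31) for Irf9, -0.37 (-0.43 to -0.31) for Irf1 and -0.26 (-0.35 to -0.18) for Irf2. Irf8, Irf3 and Irf7 lay between -0.12 and -0.11. Even such small ratios left out 0, as a counting interval narrows when counts grow. The shares of all genes given here were not matched on level. In mice labelled Irf4-/- the interval lay below 0 for 3 of 8, against 17.3% of genes. These were Irf9 at -0.19 (-0.28 to -0.10), Irf8 at -0.14 (-0.18 to -0.11) and Irf7 at -0.12 (-0.22 to -0.02), while Irf4 was at 0.11 (-0.17 to 0.40) and Irf1 at -0.03 (-0.09 to 0.02). By the 1.5-fold rule 0 members were apart in either injection pair, against 6.96% of genes higher and 6.18% lower in WT and 2.97% higher and 2.64% lower in Irf4-/-.

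In the additive model 0 of 8 members rose and 0 fell with injection, where 0.333% and 0.392% of all genes did, and 1 of the 8, Irf9, had an unadjusted p under 0.05 by edgeR. Irf9 had an injection change of -0.29 (SE 0.0976, 95% interval -0.51 to -0.08, adjusted p = 0.213). DESeq2 and limma-voom passed 0 members as well. Fitted on injection alone without Irf4-/- injected, Irf1 (-0.43, adjusted p = 0.0382) and Irf9 (-0.50, adjusted p = 0.0368) passed, in a fit where the WT injected library is the whole injected arm. Beside this, 1 of the 12 B cell markers, Fcer2a, fell with injection (-2.28, adjusted p = 0.0480), and of the 15 monocyte and macrophage markers 2 rose, Vcam1 and C1qc, and 1 fell, Lyz2. With genotype left out as a term these 4 calls were lost (adjusted p from 0.294 to 0.5098), and on all 4 libraries Fcer2a missed the threshold by limma-voom (adjusted p = 0.0607) and C1qc by DESeq2 (adjusted p = 0.1007). Their part in the levels of the IRFs was not tested.

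The response to injection differed between genotypes for 4 members by more than counting error, which is no test of the conditions. The difference of log2 ratios, Irf4-/- minus WT, was 0.62 (0.07 to 1.17) for Irf4, 0.34 (0.26 to 0.41) for Irf1, 0.31 (0.19 to 0.43) for Irf2 and 0.21 (0.08 to 0.33) for Irf9. Such an interval lay above 0 for 22.9% of all genes and below 0 for 18.5%, shares that were likewise not matched on level. For Irf8, whose response was -0.14 in Irf4-/- and -0.12 in WT, the difference was -0.03 (-0.08 to 0.03). Irf3, Irf5 and Irf7 also had intervals that included 0. All 4 genes with a difference had their lowest level in WT injected, and no value without that library can be had for a difference of responses.

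None of the genes measured beside Irf4 on chromosome 13 passed the test. Of 6 tested genes that start within 1 Mb of Irf4, 0 passed the genotype effect (adjusted p from 0.721 to 0.996). Exoc2, an exocyst subunit gene 225 kb downstream, had 110.5 CPM in Irf4-/- injected, 105 in Irf4-/- control, 121 in WT injected and 113 in WT control, a genotype change of -0.11 (SE 0.0936). Dusp22, a phosphatase gene upstream, had a genotype change of 0.01 (SE 0.157), and its levels of 20.1, 14.4, 20.6 and 14.1 CPM in the same order of libraries were high in both injected libraries. Mboat1, an acyltransferase gene, had the largest value, 0.41 (SE 0.274).

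**Figure D3:**
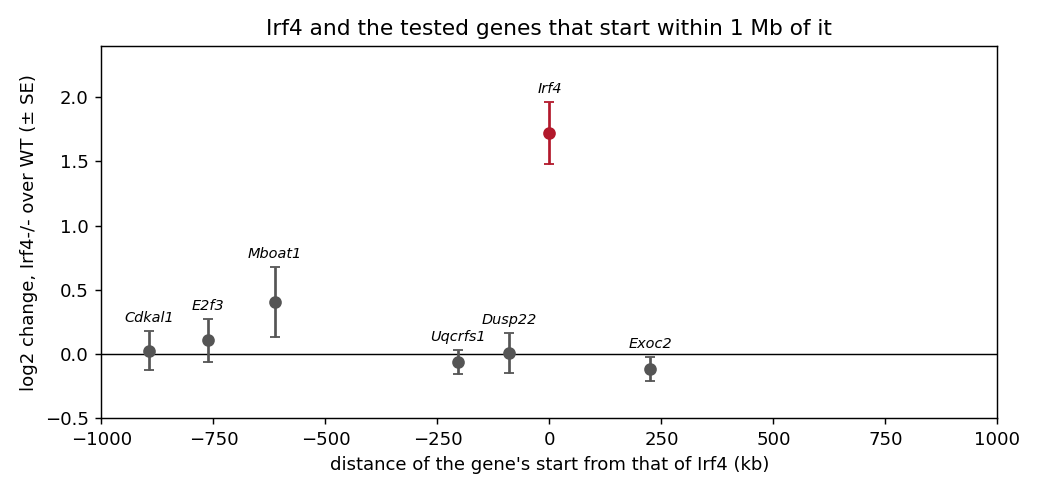
Genotype change on the log2 scale (vertical, points with bars of 1 SE from the additive model over 4 libraries) of Irf4 and the 6 tested genes that start within 1 Mb of it, by distance from the start of Irf4 in kb (horizontal). Irf4 is at 1.72 and the others lie between -0.11 and 0.41.

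The genes most like Irf4 were those with the smallest Euclidean distance between centred log2 CPM over the 4 libraries, among 9323 candidates, which were the other protein-coding genes that reached 5 CPM on average. The nearest was P3h4, a collagen-modifying factor gene, with 15.1 CPM in Irf4-/- injected, 14.6 in Irf4-/- control, 4.04 in WT injected and 5.52 in WT control, at a distance of 0.0951. Nhsl2 (0.212), Chst2 (0.257), a sulfotransferase gene, Avil (0.266), which encodes the actin-binding protein advillin, and Fkbp10 (0.302), which encodes a collagen chaperone, followed. P3h4 ends at 100414836 and Fkbp10 starts at 100415697 on chromosome 11 in GRCm38, so that they are adjacent genes. For Irf8 the nearest were Capg (0.0381), a gelsolin-family gene, Zmynd8 (0.0495), Sun1 (0.0557), a nuclear envelope gene, Ern1 (0.0651), which encodes the stress sensor IRE1, and Rab31 (0.0663). The 4 libraries are few points for such a likeness, which is given as a description.

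Upstream of the IRFs stand sensors, adaptors and kinases. Of 17 genes for nucleic acid sensing and IRF-activating kinases, 1 rose with the Irf4-/- label and 0 fell, against 1.22% and 0.258% of all genes tested. The injection effect passed 0 of them, and their median genotype change was 0.125, against -0.001 for all genes tested. Myd88, the adaptor that links Toll-like receptors to IRF5 and IRF7, had 75.0 CPM in Irf4-/- injected, 70.4 in Irf4-/- control, 47.5 in WT injected and 47.5 in WT control, and rose by 0.62 (SE 0.1003, adjusted p = 0.0118). Both Irf4-/- libraries were above both WT libraries, and the WT libraries were equal to the digits shown.

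The DNA-binding partners of IRF4 and IRF8 held 12 genes, of which 11 were tested and 0 passed either effect. The most abundant were Ets1, at 1651 CPM in Irf4-/- injected, 1416 in Irf4-/- control, 1468 in WT injected and 1373 in WT control, and Ikzf1, which encodes IKAROS, at 989, 881, 962 and 969 CPM in that order. Spi1, which encodes PU.1, lay between 2.57 and 3.75 CPM. Among 12 binding proteins and modifiers of IRFs 0 passed either effect, with Cbl (304, 325, 279 and 301 CPM) and Irf2bpl (285, 261, 222 and 295 CPM) the most abundant.

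Of 12 genes bound or regulated by IRF4 in other lymphocytes, 9 were tested, 2 rose with the Irf4-/- label, 0 fell, and 1 rose with injection. Of all genes tested, 1.22% rose and 0.258% fell with the label, and 0.333% rose with injection. This list, like the others, was chosen with earlier results of these data known. Its counts beside those shares are a description and no test of IRF4 targets. Il10, an anti-inflammatory cytokine gene, had 371 counts in Irf4-/- injected, 120 in Irf4-/- control, 21 in WT injected and 4 in WT control, and rose with the label by 4.45 (SE 0.327, adjusted p = 6.93e-05) and with injection by 1.59 (SE 0.301, adjusted p = 0.0453). The injection change of Il10 was not stable, as the injection-only fit gave -1.72 without Irf4-/- injected and 5.75 without Irf4-/- control, and it did not pass with any 1 library left out. Il2ra, which encodes a chain of the high-affinity receptor for interleukin 2, had 29.7 CPM in Irf4-/- injected, 17.9 in Irf4-/- control, 8.67 in WT injected and 3.85 in WT control, and rose with the label by 1.98 (SE 0.189, adjusted p = 0.000432). In both genes the 4 libraries followed the same order. Prdm1, which encodes the terminal differentiation factor BLIMP1 and is a classical IRF4 target in B and T cells, stood at 86.4, 104, 130 and 88.2 CPM, with a genotype change of -0.17 (adjusted p = 0.825).

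The lists of IRF target genes come next. Of 15 genes activated by IRF1, 2 rose with the label and 0 fell, against 1.22% and 0.258% of all genes tested. The injection effect passed 0 of them, and their median genotype change was 0.249 against -0.001 for all genes tested. Nlrc5, the transactivator of MHC class I, had 506 CPM in Irf4-/- injected, 453 in Irf4-/- control, 310 in WT injected and 308 in WT control, and rose by 0.64 (SE 0.109, adjusted p = 0.0152). Gbp3, a guanylate-binding protein gene, had 71.3, 76.7, 39.5 and 58.0 CPM in that order and rose by 0.63 (SE 0.119, adjusted p = 0.0267). Tap1, a peptide transporter subunit gene, stood at 391, 362, 302 and 273 CPM, with a change of 0.40 that did not pass.

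Of 18 genes activated by ISGF3 or IRF7, 16 were tested. With the label 1 rose, against 1.22% of all genes tested, and with injection 1 fell, against 0.392%. The medians were -0.072 for genotype and -0.379 for injection, against -0.001 and 0.003 for all genes tested. Ifit2, an interferon-induced RNA-binding protein gene, had 59.8 CPM in Irf4-/- injected, 57.9 in Irf4-/- control, 35.7 in WT injected and 43.8 in WT control, and rose with the label by 0.58 (SE 0.118, adjusted p = 0.0408). Oas3, an oligoadenylate synthetase gene, had 11.8, 18.2, 12.4 and 30.3 CPM in that order, and its injection change of -0.97 (SE 0.185) passed with an adjusted p of 0.0468. Both calls are near the threshold, as DESeq2 gave an adjusted p of 0.124 for Ifit2 and 0.05004 for Oas3. Genotype alone, fitted to all 4 libraries, passed 0 of the 6 genes that rose (adjusted p of 0.105 for Myd88, 0.133 for Nlrc5, 0.108 for Il10, 0.203 for Il2ra, 0.268 for Ifit2 and 0.559 for Gbp3). In the genotype-only fit without WT injected, Ifit2 (adjusted p = 0.128) and Gbp3 (adjusted p = 0.231) no longer passed, while Myd88, Nlrc5, Il10 and Il2ra did. With either Irf4-/- library left out of that fit, 0 of these 6 genes passed, and Oas3 did not pass the injection-only fit with any 1 library left out.

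**Figure D4:**
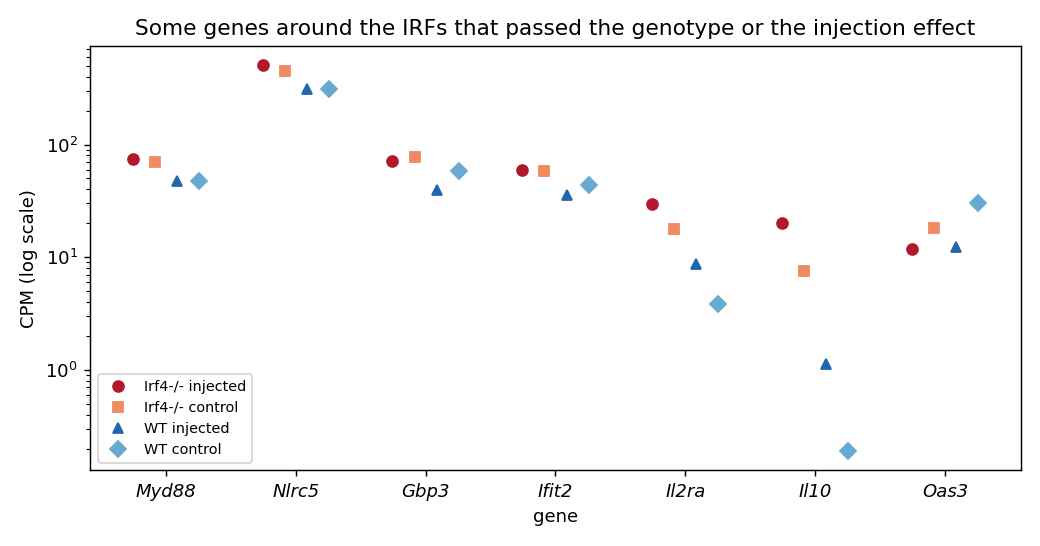
CPM (vertical, log scale) in each library of 7 genes around the IRFs that passed the genotype or the injection effect, 1 point a library and no replicates. Myd88, Nlrc5, Gbp3, Ifit2, Il2ra and Il10 have both Irf4-/- points above both WT points, and Oas3 has both injected points below both control points.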

How the data were processed

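Each of the 4 libraries has 1 value of each kind per gene. The authors deposited raw read counts in whole numbers, without normalization. They also deposited FPKM, which could be rebuilt from the counts, each library's sum and 1 whole gene length. TopHat, edgeR and mm10 are named per the submitters' processing notes. Which tool counted reads, on which annotation and whether by strand, is not given in the sources used here. Symbols came from GENCODE M21 (GRCm38) for 34490 of 35275 identifiers.

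Members and lists were chosen with earlier results of these data known. Counts were scaled by TMM in edgeR 4.0.16 (R 4.3.3). Log2 ratios used a prior count of 2, with exact (Clopper-Pearson) 95% intervals for pairs and normal ones on the log scale for differences of responses. The additive model (glmQLFit, glmQLFTest, two-sided, adjusted p under 0.05) took genes that reached 1 CPM in 2 or more libraries. The prior degrees of freedom were 9.62. The coefficient of variation that edgeR terms biological was 9.98%, and it comes from the departure from an additive pattern, not from replicates. An SE is the size of the log2 change over the square root of F. In simulated data with purely additive effects and a dispersion of 0.01 in every gene, the model recovered 65.7% of genes changed 1.5-fold. It recovered 97% of those changed 2.5-fold and called 0.0766% of unchanged genes. No library was set apart in those data, as WT injected is here, so they do not check that case. A count of 0 allows up to 3 counts, 0.143 to 0.187 CPM by library.

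Named were the 8 members, list genes that passed (at most 4 per list and effect, otherwise up to 2 of the most abundant), the 5 genes most like Irf4 and Irf8, tested genes within 1 Mb of Irf4, and genes with overlapping exons. Spi1, Prdm1, Tap1, Cd79a, Cr2, Jchain, Mzb1, Derl3, Xbp1, Sdc1, Tnfrsf17, Itgax, Xcr1, Clec9a, Siglech, Ighm, Exoc2, Dusp22 and Mboat1 were singled out after their values were seen. All 8 members matched a RefSeq promoter window. Some results of the lists are not reported here. Alternatives were other scalings, filters, folds and prior counts, DESeq2 1.42.0, limma-voom (limma 3.58.1), FPKM with a pseudocount of 0.1, and each library left out.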

Additional observations from a re-analysis of the deposited data

Results flagged for a closer look

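Injection responses went in opposite directions in the genotypes for Irf4 and Irf2. Irf4 was at 0.11 in Irf4-/- mice and -0.51 in WT mice on the log2 scale, a difference of 0.62, and Irf2 was at 0.04 in Irf4-/- mice and -0.26 in WT mice, a difference of 0.31. The difference was not tested, because each group has 1 library, and in the Irf4-/- pair the counting interval of both genes included 0.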

How the results depend on the processing

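The number of members that passed the genotype effect was 1, and 2 with no filter (Irf4 and Irf8) and 0 with injection left out as a term, where Irf4 had a change of 1.71 and an adjusted p of 0.0995. It ranged from 0 to 4 with 1 library and the other term left out. For the injection effect 0 members passed, and from 0 to 2 with 1 library left out. Over all genes 177 passed the genotype effect, against 482 with no filter and 5 with injection left out, and from 0 to 1260 with 1 library left out (9 without Irf4-/- control). For injection 87 passed, against 213 with upper quartile and 275 with library total scaling, 604 with no filter, 161 at 5 CPM, 235 at an adjusted p under 0.1, 0 with genotype left out, and from 0 to 874 with 1 library left out (18 without WT injected). The counts of members apart in the 4 pairs were the same under every alternative run for them, and all 128 alternative log2 ratios lay within their counting intervals.

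With 1 library left out the genotype change ran from -0.076 to 0.034 for Irf3 and from -0.11 to 0.019 for Irf7, which was at 0.0066 without WT control. The injection change ran from -0.43 to 0.029 for Irf1, -0.25 to 0.029 for Irf2, -1.38 to 0.84 for Irf4, -0.33 to 0.086 for Irf8 and -1.72 to 5.75 for Il10. Without WT injected it was 0.66 for Irf4 and 0.038 for Irf8. Such fits mix the term left out into the other. Runs on list genes were chosen after seeing the data. The cause of these shifts was not tested. No paired analysis was possible because the labels give no replicate numbers and each group has 1 library. Depth limits Irf4 among the members, with 57 counts in WT injected and 93 in WT control, and Il10 among the list genes, with 21 and 4.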
